A study of Mus musculus with 24 samples.

Results

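The members were 40 mouse genes for plasma proteins of complement, the lectin pathway, coagulation and fibrinolysis that hepatocytes are known to make. They were taken by symbol from a gene count table of 24421 entries, and all 40 symbols were found. Of the 40, 37 passed the filter on low counts and were tested, out of 4764 genes tested in all. Masp1 (72 counts over all libraries), Pros1 (38) and Klkb1 (95) did not pass.

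The libraries came from livers of male C57Bl/6J mice, with 3 libraries in each of 8 groups. Mice were fed a control diet with 13% fat (CD) or a Western-style diet with 42% fat (WD). During the first 12 weeks they breathed either air or vinyl chloride (VC), an industrial gas that the liver metabolises, at 0.85 ± 0.1 ppm in inhalation chambers 6 hours daily, 5 days weekly. The groups w12_CD, w12_CD+VC, w12_WD and w12_WD+VC were sampled at the end of these 12 weeks, and the groups m12_CD, m12_CD+VC, m12_WD and m12_WD+VC after 9 further months of housing, with a feeding time labelled 12 months. VC inhalation therefore lay 9 months in the past in the m12 groups. All mice were fasted for 4 hours before sampling. The labels give neither the age of the mice nor whether a library is 1 animal. The p-values therefore measure the spread between libraries, which may be technical.

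Complement is a cascade of plasma proteases: recognition molecules bind a surface, and their proteases cleave C4 and C2, which form a convertase. The convertase cleaves C3, and the terminal components assemble a pore. Coagulation is a second protease cascade that ends with thrombin cutting fibrinogen into fibrin, which plasmin later dissolves. Hepatocytes secrete most proteins of both cascades and many of their inhibitors, and several of these genes, the fibrinogen chains and C3 among them, are known acute-phase genes.

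In the 23 libraries used, total counts ran from 126160 to 962493, so that 1 count was worth 0.916 to 8.30 CPM (counts per 1000000 of the scaled library size). The library w12_WD 3 held 607 counts, of which 5 belonged to members, and was left out. A gene was called where the adjusted p of edgeR's quasi-likelihood test was under 0.05, adjusted over all 4764 genes tested. Of the 40 members, 8 share exon bases with a gene on the opposite strand, namely C1s1, Masp2, C2, Hc, F5, Fgg, Serpinc1 and Plg. No source used here states whether reads were assigned by strand, so reads of such a gene and its partner cannot be told apart. In the m12_CD libraries 15.6% ± 3.55 (SD, n = 3) of counts fell on entries without such an overlap, against 26.7% ± 4.66 (n = 3) in m12_CD+VC, 25.9% ± 3.85 (n = 3) in m12_WD and 20.7% ± 2.41 (n = 3) in m12_WD+VC. Of the 40 members 32 are such entries. Beyond a change of scaling, the part of this shift in the results was not tested.

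Promoter sequences were found in RefSeq (GRCm38.p6) for 31 of the 40 members. The 4 shown here belong to C3 and the fibrinogen chains, acute-phase genes whose values in every library are given. Each starts 250 bases before the RefSeq start site and ends before the first annotated base of the gene in GENCODE M21. Capitals mark letters that match a motif of a liver factor, on either strand: TTGCNNAA for C/EBP and TTCNNNGAA for STAT.
C3, chr17:57228137-57228386, minus strand: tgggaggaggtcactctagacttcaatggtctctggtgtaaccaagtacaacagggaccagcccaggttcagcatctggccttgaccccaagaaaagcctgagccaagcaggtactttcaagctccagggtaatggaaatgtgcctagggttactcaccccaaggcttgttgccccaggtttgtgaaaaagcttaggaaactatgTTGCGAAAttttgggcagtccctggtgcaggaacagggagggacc
Fga, chr3:83025903-83026075, plus strand: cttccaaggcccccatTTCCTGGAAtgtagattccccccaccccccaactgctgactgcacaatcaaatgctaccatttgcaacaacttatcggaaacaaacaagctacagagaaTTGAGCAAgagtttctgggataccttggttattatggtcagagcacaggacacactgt
Fgb, chr3:83049864-83050113, minus strand: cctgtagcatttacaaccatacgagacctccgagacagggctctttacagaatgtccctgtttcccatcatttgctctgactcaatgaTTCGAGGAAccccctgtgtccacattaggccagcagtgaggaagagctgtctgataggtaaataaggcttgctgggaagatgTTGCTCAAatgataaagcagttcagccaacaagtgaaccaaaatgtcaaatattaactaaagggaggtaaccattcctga
Fgg, chr3:83007474-83007723, plus strand: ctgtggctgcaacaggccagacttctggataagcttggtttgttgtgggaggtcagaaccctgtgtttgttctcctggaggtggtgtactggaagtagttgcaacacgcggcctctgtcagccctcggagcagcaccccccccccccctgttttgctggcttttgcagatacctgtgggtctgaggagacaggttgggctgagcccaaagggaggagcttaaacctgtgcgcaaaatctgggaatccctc
The C/EBP letters were found before 8 of the 31 members (25.8%) and 9.55% of all 27025 genes, and stood 45 to 38 bases before C3, 135 to 128 before Fga and 80 to 73 before Fgb. For STAT the shares were 6 members (19.4%) and 7.18% of all genes, with matches before Fga and Fgb. The window before Fgg held neither, and nor did those before Hc, C4bp, F2, Cpb2 and Serpinc1. TGTTTAC, a motif of FOXA factors, was found before 2 members (F11 and Klkb1) and 3.09% of all genes. No matches of different motifs overlapped in the members. A match describes letters only and shows no binding.

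Levels per kilobase of transcript were averaged over the means of the 8 groups. The most abundant members were then Fga (553 CPM per kilobase), C3 (505), Fgb (375) and Fgg (365). The least abundant were Klkb1 (2.11), Masp1 (1.92) and Pros1 (1.58). The 3 fibrinogen genes lie within one stretch of chromosome 3 (mm10): Fgg at chr3:83007724-83015049, Fga at chr3:83026076-83033627 and Fgb at chr3:83040141-83049863. Hc lies at chr2:34983331-35061438, C4bp at chr1:130634773-130661632 and C3 at chr17:57203970-57228136.

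At 12 months the members were lower on control diet in air than in both groups that had either Western diet or past VC exposure alone. Their summed level was 8105 ± 1140 CPM (SD, n = 3) in m12_CD, 15321 ± 2507 CPM (n = 3) in m12_CD+VC and 15652 ± 4183 CPM (n = 3) in m12_WD. In m12_WD+VC it was 11904 ± 3147 CPM (n = 3). At 12 weeks it was 10510 ± 1258 CPM in w12_CD, 12197 ± 2236 CPM in w12_CD+VC and 9572 ± 1805 CPM in w12_WD+VC (n = 3 each). The w12_WD level was 7103 ± 3308 CPM (n = 2), a mean below that of m12_CD. Members made up 0.677% ± 0.163 of all counts (SD, n = 3) in m12_CD. For m12_CD+VC this share was 1.70% ± 0.410, for m12_WD 1.74% ± 0.487 and for m12_WD+VC 1.27% ± 0.336 (SD, n = 3 each). All 8 groups of members by role, from the recognition molecules to the serpin group, had their lowest m12 mean in m12_CD. In liver tissue, fewer hepatocytes and less RNA per hepatocyte cannot be told apart.

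**Figure D1:**
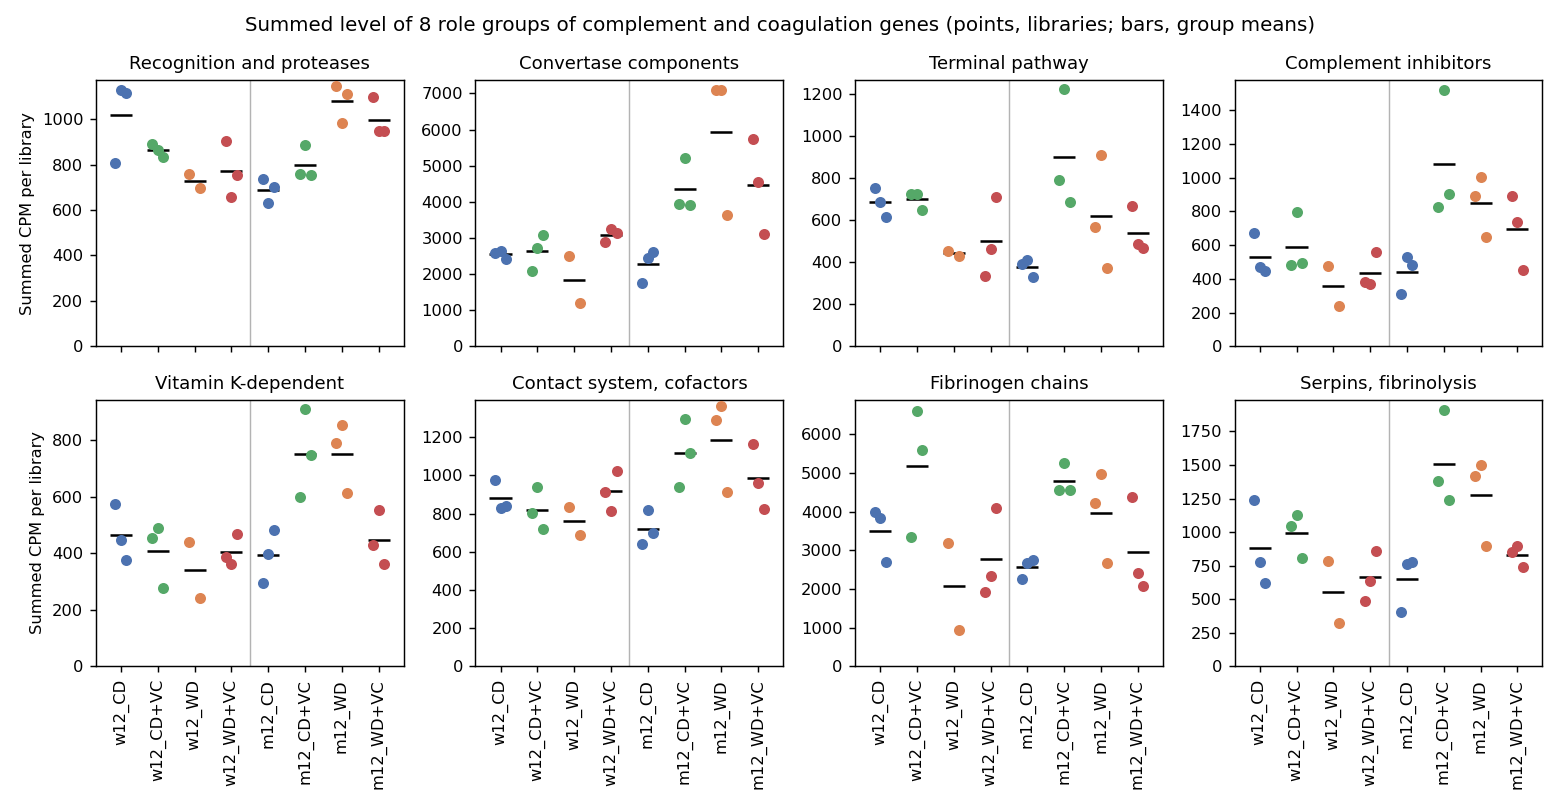
Summed CPM of 8 groups of members (one panel each, vertical axis from 0) in each of 23 libraries, with 8 sample groups on the horizontal axis, points for libraries and bars for group means. Fibrinogen chains sum to between 2250 and 2758 CPM in the m12_CD libraries and to between 4571 and 5258 CPM in m12_CD+VC.

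On Western diet in air 14 of the 37 tested members rose at 12 months (m12_WD against m12_CD) and 1 fell. Over all genes tested in this comparison 21.7% were called, 10.9% as higher and 10.8% as lower, and among entries without an opposite-strand overlap 14.0% were called higher. The members' median log2 difference was 0.74, against 0.11 over all genes tested and 0.45 over entries without an overlap. Of the 37, 32 were above 0, where 53.9% of all genes and 65.2% of entries without an overlap were. Among the 37 tested members 29 are such entries. By fold the first 5 were C1s1 (4.38-fold higher), C4bp (4.37-fold), Cpb2 (3.81-fold), Hc (3.65-fold) and C3 (3.11-fold). C3 had the smallest adjusted p, and the gene that fell was C8g. Several of these folds rest on few counts in m12_CD. The m12_CD libraries held 6, 28 and 4 counts for C1s1, 3, 9 and 8 for C4bp and 8, 7 and 7 for Cpb2. For Hc they held 9, 18 and 17, and for C3 291, 729 and 566.

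After past VC exposure on control diet 9 of the 37 tested members rose (m12_CD+VC against m12_CD) and none fell, where 3.86% of all genes tested were called and 2.43% were called higher (3.61% among entries without an overlap). The members' median log2 difference was 1.11, against 0.08 over all genes tested and 0.55 over entries without an overlap. The 9 were C3, Hc, C6, C8a, Cfi, C4bp, Vtn, F2 and Serpinc1. This comparison shares the m12_CD libraries with the diet comparison, so the 2 sets of differences are not independent of each other.

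In the 2 comparisons that add one treatment to the other no member was called. With past VC exposure, Western diet (m12_WD+VC against m12_CD+VC) gave 0 member calls in edgeR, with 16 at an unadjusted p under 0.05 and 2 calls in DESeq2 (Masp2 and F13b, both higher; named after their values were seen). Here 1.26% of all genes were called by edgeR, and 636 of the 4764 tested had an unadjusted p under 0.05. DESeq2 called 46 genes higher and 53 lower. The members' median log2 difference was -0.64, against -0.22 over entries without an overlap. Of the 37 members 34 lay below 0, while 37.6% of entries without an overlap lay above 0. On Western diet, past VC exposure (m12_WD+VC against m12_WD) also gave 0 member calls in edgeR and 0 in DESeq2. At an unadjusted p under 0.05 there were 4 members and 457 of the 4764 genes tested, and 0.441% of all genes were called. The members' median was -0.47, against -0.18 over entries without an overlap, and 30 of the 37 members lay below 0. The test of the difference itself, the diet by VC interaction, called 17 of 37 members, all negative, where 7.87% of all genes were called and 4.41% were called negative (6.72% among entries without an overlap). A negative value says that the log2 VC difference was lower on Western diet than on control diet, whether a smaller rise or a fall. The members' median interaction was -1.50 on the log2 scale, against -0.06 over all genes and -0.69 over entries without an overlap.

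**Figure D2:**
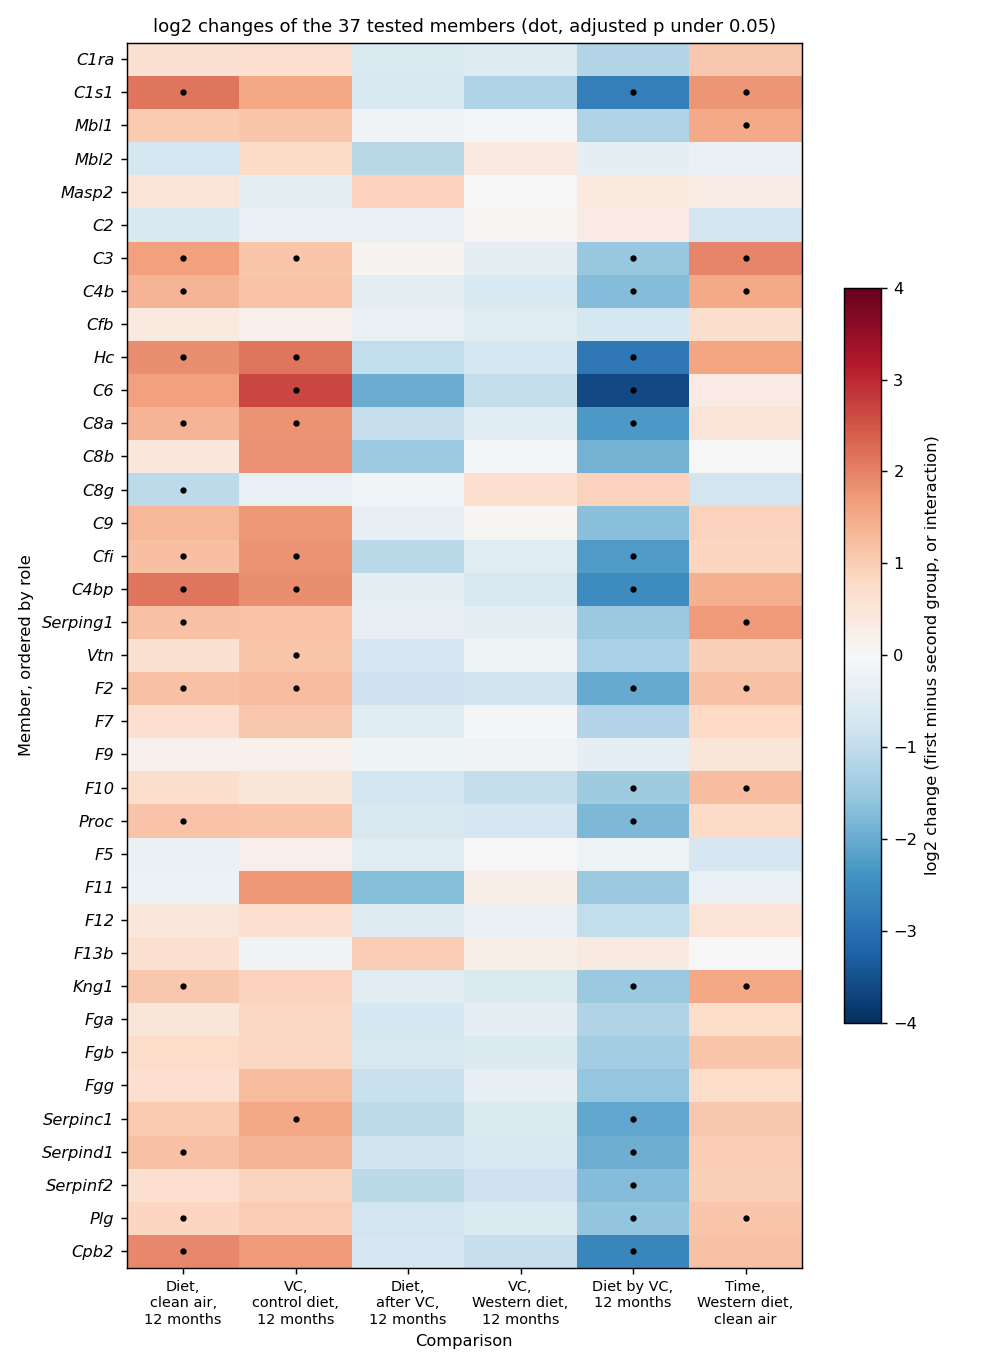
log2 differences of the 37 tested members (rows, ordered by role) in 6 comparisons (columns), red for higher and blue for lower, with a dot where the adjusted p was under 0.05. The first 2 columns are mostly red and the interaction column mostly blue, with 14, 9 and 17 dots for the higher calls of diet, those of VC and the lower calls of the interaction, 1 further dot for C8g in the diet column, and 9 dots in the time column.

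The counts depended on single libraries. For diet in air, 7 members were called without m12_CD 1 and 7 without m12_WD 2. For VC on control diet, edgeR called 0 without m12_CD 1 or without m12_CD+VC 2, with 19 and 21 members at an unadjusted p under 0.05, and 4 without m12_CD 3 or without m12_CD+VC 1. For the interaction the count was 2 without m12_WD+VC 3, 5 without m12_CD+VC 2, 6 without m12_CD 1, 7 without m12_WD 2 and 11 without m12_WD 1. The calls over all genes fell in number as well. They went from 1035 to 592 for diet without m12_CD 1 and to 707 without m12_WD 2. For VC they went from 184 to 0 without m12_CD 1 or m12_CD+VC 2, with 770 and 838 genes at an unadjusted p under 0.05. For the interaction they went from 375 to 58 without m12_WD+VC 3, so these losses were not limited to the members. C1s1, C3, C4b, C4bp and Cpb2 stayed called for diet, and Hc and F2 for the interaction, under each alternative setting run. They also did so whichever library of the groups compared was left out. No call for VC on control diet was kept in this way.

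Scaling on entries without an opposite-strand overlap, in place of all entries, moved the median of all genes by -0.36 for diet, -0.47 for VC on control diet and 0.61 for the interaction (log2). Under it the members called were 6 higher and 2 lower for diet, 6 higher for VC, and 8 lower and 1 higher for the interaction. Over all genes the split of higher against lower calls went from 519 and 516 to 293 and 812 for diet, from 116 and 68 to 92 and 765 for VC, and from 165 and 210 to 681 and 112 for the interaction. The members' median was then 0.40 for diet against -0.24 over all genes, 0.61 against -0.38 for VC and -0.84 against 0.54 for the interaction. A change of scaling moves all genes of a comparison by about the same amount, so the gap between members and all genes is no check of the scaling.

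**Figure D3:**
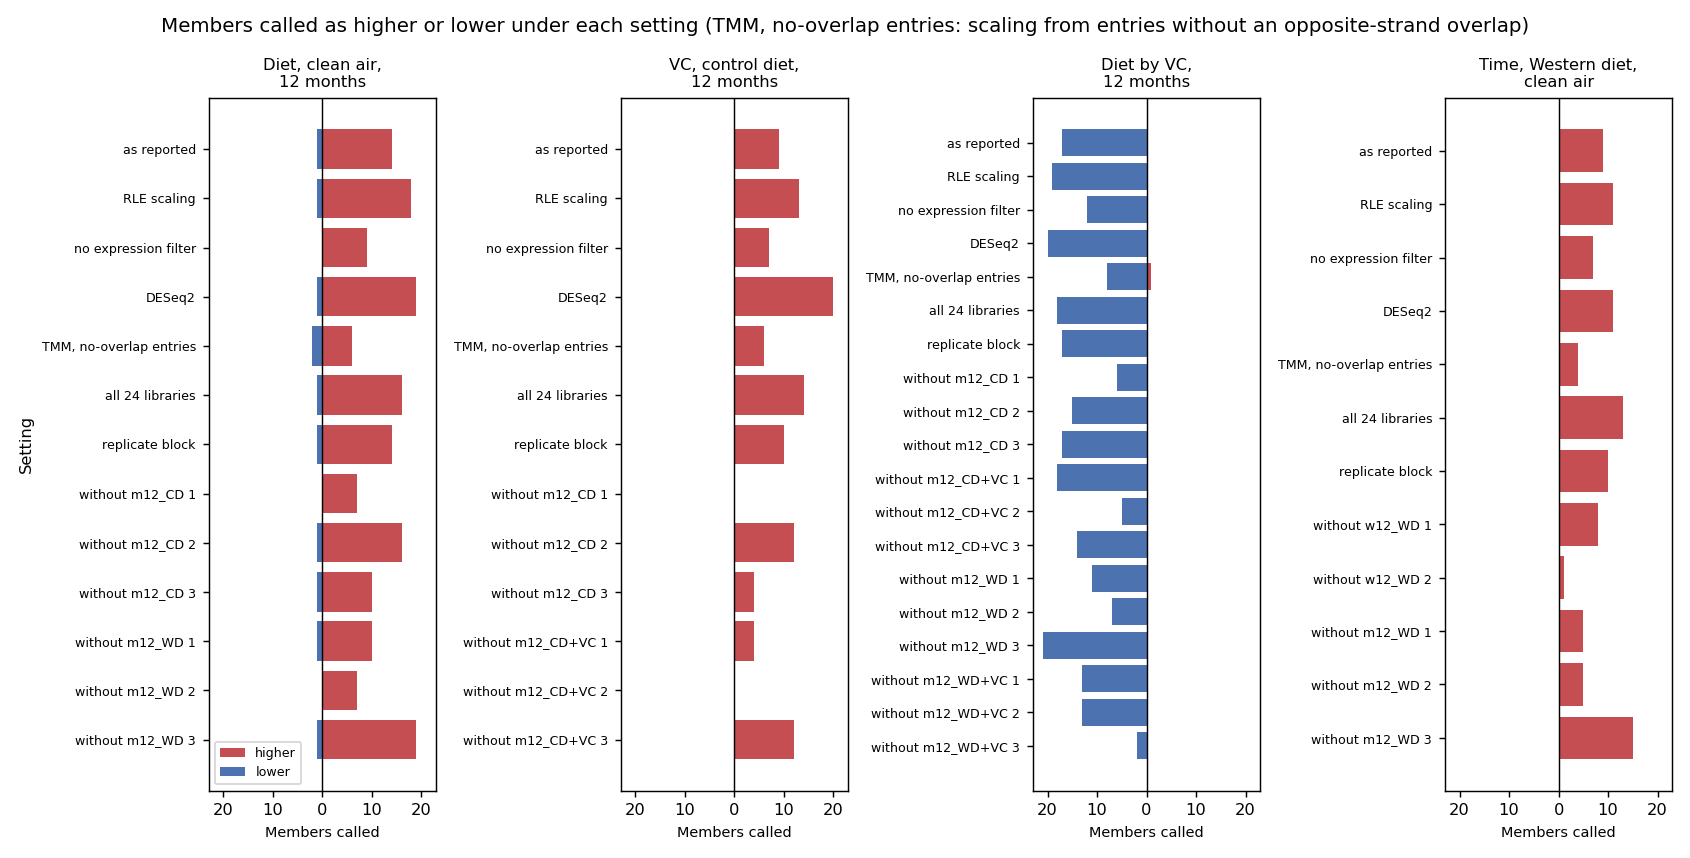
Members called higher (red, to the right) and lower (blue, to the left) under each setting, in 4 comparisons. The horizontal axis counts members from 0 in both directions. The bar for VC on control diet is empty without m12_CD 1 and without m12_CD+VC 2, and the interaction bar is shortest, at 2, without m12_WD+VC 3.

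Among the recognition molecules and their proteases 1 of 5 tested members was called for diet. C1s1, the C1s protease that cleaves C4 and C2, was at 25.0, 65.3 and 12.2 CPM in m12_CD and at 187, 185 and 107 CPM in m12_WD. In m12_CD+VC it was at 81.0, 153 and 93.2 CPM and in m12_WD+VC at 88.7, 96.1 and 22.7 CPM. All m12_WD libraries lay above all m12_CD libraries, while m12_WD+VC overlapped the m12_CD values. The diet difference was 2.13 ± 0.48 (log2, SE; adjusted p = 0.00187), the VC difference on control diet was 1.54 ± 0.50 (adjusted p = 0.0652), and the interaction was -2.75 ± 0.68 (adjusted p = 0.0157). Its exons overlap those of Gm16567 on the other strand. Mbl1 and Mbl2, the mannose-binding lectins, and C1ra, the partner protease of C1s, were not called for diet, for VC on control diet or for the interaction. Over the 23 libraries they ran from 16.6 to 146 CPM, 31.5 to 146 CPM and 8.30 to 106 CPM, respectively.

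Masp2, the lectin-pathway protease that cleaves C4 and C2, went another way and was picked out after its values were seen. It was at 576, 378 and 524 CPM in m12_CD, at 423, 299 and 414 CPM in m12_CD+VC, at 769, 537 and 820 CPM in m12_WD and at 812, 654 and 714 CPM in m12_WD+VC. The m12_WD+VC libraries lay above all 6 control diet libraries of 12 months, and m12_WD overlapped m12_CD. Neither diet difference was called (0.53 ± 0.26, adjusted p = 0.143 in air; 0.92 ± 0.27, adjusted p = 0.0792 after VC). Masp2 shares 1817 exon bases with Tardbp on the other strand, which held 115304 counts over all libraries against 5393 for Masp2. Tardbp itself was at a mean of 17049 CPM in m12_CD and 10996 CPM in m12_WD, a difference of -0.63 ± 0.24 (log2, adjusted p = 0.0531).

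Of the convertase components C3 and C4b rose with diet, while C2 (53.1 to 186 CPM over the 23 libraries) and Cfb (192 to 708 CPM) were not called in any comparison. C3, the central protein on which all complement routes converge, was at 1215, 1701 and 1723 CPM in m12_CD and at 5866, 5686 and 2898 CPM in m12_WD. It stood at 3155, 3975 and 2935 CPM in m12_CD+VC and at 4786, 3744 and 2451 CPM in m12_WD+VC. The 3 m12_CD libraries were the lowest of the 12 libraries at 12 months. The difference with diet was 1.64 ± 0.30 (adjusted p = 2.43e-04), with VC on control diet 1.11 ± 0.30 (adjusted p = 0.0308), and the interaction was -1.51 ± 0.42 (adjusted p = 0.0268). In the 11 libraries of 12 weeks C3 ran from 714 to 2545 CPM.

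C4b, the complement component cleaved by the C1s and MASP proteases, was at 117, 229 and 195 CPM in m12_CD and at 496, 594 and 333 CPM in m12_WD. It was at 296, 558 and 365 CPM in m12_CD+VC and at 410, 294 and 237 CPM in m12_WD+VC. As with C3, the m12_CD libraries were the lowest at 12 months. C4b rose with diet (1.37 ± 0.35, adjusted p = 0.00509), its VC difference on control diet was 1.14 ± 0.35 (adjusted p = 0.0588), and the interaction was -1.75 ± 0.49 (adjusted p = 0.0292).

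Of the 6 terminal components 3 rose with VC on control diet (Hc, C6 and C8a), and with diet in air Hc and C8a rose and C8g fell. Hc, which encodes C5, was at 37.6, 42.0 and 51.8 CPM in m12_CD, at 172, 326 and 114 CPM in m12_CD+VC, at 128, 304 and 61.3 CPM in m12_WD and at 116, 108 and 75.6 CPM in m12_WD+VC. None of the other m12 libraries reached down to the m12_CD range. At 12 weeks Hc ran from 33.2 to 152 CPM. It rose 3.65-fold with diet (1.87 ± 0.47, adjusted p = 0.00475) and 4.44-fold with VC (2.15 ± 0.48, adjusted p = 0.0191), and the interaction was -2.86 ± 0.65 (adjusted p = 0.0112).

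C8a, the alpha chain of the pore component C8, was at 75.1, 117 and 54.8 CPM in m12_CD and at 149, 499 and 259 CPM in m12_CD+VC. It was at 192, 285 and 175 CPM in m12_WD and at 239, 133 and 113 CPM in m12_WD+VC. The library m12_CD+VC 2 stood highest of all 23. C8a rose with diet (1.37 ± 0.38, adjusted p = 0.00959) and with VC on control diet (1.81 ± 0.39, adjusted p = 0.0167).

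C8g, the gamma chain of the same component, moved the opposite way with diet. It was at 242, 159 and 183 CPM in m12_CD and at 119, 60.4 and 98.0 CPM in m12_WD, with no overlap. The values were 200, 93.1 and 166 CPM in m12_CD+VC and 130, 121 and 182 CPM in m12_WD+VC. It fell with diet (-1.05 ± 0.32, adjusted p = 0.0167), and its VC difference on control diet was -0.30 ± 0.32 (adjusted p = 0.578). Per kilobase of transcript, the ratio of C8a to C8g ran from 0.0954 to 0.234 in m12_CD and from 0.515 to 1.50 in m12_WD. It ran from 0.237 to 1.70 in m12_CD+VC, from 0.199 to 0.586 in m12_WD+VC and from 0.201 to 0.520 in w12_WD+VC. The call for C8g was lost without m12_CD 1, without m12_WD 2 and without the filter on low counts. C6, with 238 counts in all, ran from 4.20 to 107 CPM over the 23 libraries and was 6.42-fold higher with VC (adjusted p = 0.0313). C8b (3.66 to 133 CPM) and C9 (16.7 to 177 CPM), the other pore components, were not called in any comparison.

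Among the complement inhibitors 3 of 4 rose with diet (Cfi, C4bp and Serping1) and 3 of 4 with VC on control diet (Cfi, C4bp and Vtn). Vtn, the plasma protein vitronectin, which binds the terminal complex, ran from 166 to 844 CPM over the 23 libraries. C4bp, which binds C4b and speeds the decay of its convertase, was at 12.5, 21.0 and 24.4 CPM in m12_CD and at 104, 115 and 48.5 CPM in m12_WD. It was at 76.0, 93.1 and 56.9 CPM in m12_CD+VC and at 88.7, 59.1 and 30.3 CPM in m12_WD+VC. Every other m12 library lay above the m12_CD range. The diet difference was 2.13 ± 0.48 (adjusted p = 0.00168), the VC difference 1.87 ± 0.50 (adjusted p = 0.0308) and the interaction -2.52 ± 0.66 (adjusted p = 0.0203). C4bp was also the member called between times on control diet in air: it was lower in m12_CD than in w12_CD, where the mean was 78.9 CPM (-1.97 ± 0.49, adjusted p = 0.0335), and 1.26% of all genes were called there. That call was lost without w12_CD 1, without w12_CD 2 and without each of the 3 m12_CD libraries.

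Cfi, the protease that inactivates C3b and C4b, was at 29.2, 58.3 and 57.8 CPM in m12_CD and at 144, 273 and 127 CPM in m12_CD+VC. In m12_WD it was at 146, 127 and 75.1 CPM and in m12_WD+VC at 95.6, 97.5 and 58.0 CPM. The VC exposed control diet group was highest, and m12_WD+VC touched the m12_CD range. Cfi rose 3.52-fold with VC (1.81 ± 0.39, adjusted p = 0.0167) and 2.30-fold with diet (1.20 ± 0.38, adjusted p = 0.0236), and its interaction was -2.28 ± 0.54 (adjusted p = 0.0129).

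Serping1, the C1 inhibitor, which also restrains the contact system, was at 62.6, 107 and 91.3 CPM in m12_CD and at 198, 237 and 162 CPM in m12_WD. It was at 144, 306 and 153 CPM in m12_CD+VC and at 239, 163 and 78.2 CPM in m12_WD+VC. Serping1 rose with diet (1.16 ± 0.39, adjusted p = 0.0315), while the VC difference (1.14 ± 0.40, adjusted p = 0.0801) and the interaction (-1.50 ± 0.55, adjusted p = 0.0800) were not called.

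Of the vitamin K-dependent factors F2 and Proc rose with diet, F2 with VC on control diet, and F2, F10 and Proc had a negative interaction. F2, which encodes prothrombin, was at 104, 180 and 155 CPM in m12_CD, at 319, 399 and 329 CPM in m12_CD+VC, at 376, 408 and 230 CPM in m12_WD and at 164, 246 and 161 CPM in m12_WD+VC. The group given both treatments overlapped m12_CD, and the 2 groups given one treatment did not. F2 differed by 1.18 ± 0.32 with diet (adjusted p = 0.00874) and by 1.23 ± 0.33 with VC (adjusted p = 0.0308), with an interaction of -2.02 ± 0.46 (adjusted p = 0.0110). F2 was also the single member called between times on control diet with VC (m12_CD+VC against w12_CD+VC), higher by 1.09 ± 0.33 (adjusted p = 0.0494), where 4.62% of all genes were called. That call was lost whichever of the 6 libraries of the comparison was left out. F10, the factor that cleaves prothrombin, ran from 60.8 to 239 CPM over the 23 libraries, and Proc, the anticoagulant protein C, from 29.2 to 171 CPM. F7 (0 to 64.7 CPM) and F9 (12.7 to 84.3 CPM), the factors of the extrinsic and intrinsic routes, were not called in any comparison.

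In the contact system and cofactor group Kng1 alone was called for diet in air, of 5 tested. Kng1, the kininogen from which bradykinin is released, was at 225, 415 and 365 CPM in m12_CD and at 760, 900 and 466 CPM in m12_WD. It was at 542, 765 and 608 CPM in m12_CD+VC and at 621, 507 and 315 CPM in m12_WD+VC. Kng1 rose with diet (1.07 ± 0.32, adjusted p = 0.0155), its VC difference was 0.91 ± 0.32 (adjusted p = 0.0779) and its interaction -1.48 ± 0.45 (adjusted p = 0.0385). F5 (87.0 to 256 CPM over the 23 libraries), F11 (0 to 46.5 CPM), F12 (19.9 to 126 CPM) and F13b were not called in any comparison by edgeR. F13b, the carrier subunit of the factor that crosslinks fibrin, ran like Masp2 and was also picked out after its values were seen: 167, 196 and 97.4 CPM in m12_CD, 109, 146 and 168 CPM in m12_CD+VC, 241, 183 and 296 CPM in m12_WD and 239, 268 and 328 CPM in m12_WD+VC. Its diet difference was 0.65 ± 0.29 in air (adjusted p = 0.111) and 0.99 ± 0.30 after VC (adjusted p = 0.104). F5, the cofactor of factor X, shares 262 exon bases with Gm16548, which held 2944 counts against 1302 for F5.

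The fibrinogen chains were not called in any comparison. Fga was at 1144, 1118 and 1066 CPM in m12_CD, 1826, 2074 and 1988 CPM in m12_CD+VC, 1647, 1766 and 1238 CPM in m12_WD and 1720, 998 and 895 CPM in m12_WD+VC. Fgb was at 810, 1108 and 1239 CPM in m12_CD, 1876, 2081 and 1713 CPM in m12_CD+VC, 1888, 2372 and 1028 CPM in m12_WD and 1823, 1001 and 842 CPM in m12_WD+VC. Fgg was at 296, 441 and 454 CPM in m12_CD, 871, 1104 and 870 CPM in m12_CD+VC, 687, 825 and 415 CPM in m12_WD and 840, 404 and 333 CPM in m12_WD+VC. For all 3 chains the m12_CD+VC libraries lay above the m12_CD libraries without overlap. The share of all genes with such a gap was not counted. In this comparison 1253 of the 4764 genes tested had an unadjusted p under 0.05. The VC differences of the chains were 0.82 ± 0.34 for Fga (adjusted p = 0.124), 0.84 ± 0.33 for Fgb (adjusted p = 0.107) and 1.25 ± 0.43 for Fgg (adjusted p = 0.0728). At 12 weeks the highest values of all 23 libraries were reached, by w12_CD+VC 2, with 2700 CPM for Fga, 2678 CPM for Fgb and 1239 CPM for Fgg.

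The 3 chains are needed in equal numbers for the fibrinogen molecule. Per kilobase of transcript, the ratio of Fga to Fgb ran from 1.10 to 2.08 over the 23 libraries (median 1.48), and that of Fgg to Fgb from 0.360 to 1.23 (median 0.907). The lowest value of Fgg to Fgb came from w12_WD 2, where Fgg was at 66.4 CPM and 1 count was worth 8.30 CPM. By group, the mean ratio of Fga to Fgb stayed between 1.38 (m12_WD) and 1.65 (w12_WD, n = 2).

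Among serpins and fibrinolysis genes Serpind1, Plg and Cpb2 rose with diet, Serpinc1 rose with VC on control diet, and all 5 had a negative interaction. Over the 23 libraries Serpinc1 (antithrombin) ran from 54.3 to 465 CPM, Serpind1 (heparin cofactor) from 20.9 to 153 CPM and Serpinf2 (the plasmin inhibitor) from 33.2 to 164 CPM. Plg, the precursor of plasmin, was at 234, 460 and 429 CPM in m12_CD, 704, 1010 and 598 CPM in m12_CD+VC, 769, 725 and 558 CPM in m12_WD and 505, 467 and 411 CPM in m12_WD+VC. Its diet difference was 0.86 ± 0.31 (adjusted p = 0.0410), its VC difference 1.02 ± 0.31 (adjusted p = 0.0545) and its interaction -1.59 ± 0.43 (adjusted p = 0.0247). Cpb2, a carboxypeptidase that slows fibrinolysis, was at 33.4, 16.3 and 21.3 CPM in m12_CD, 58.2, 133 and 49.2 CPM in m12_CD+VC, 68.3, 121 and 76.0 CPM in m12_WD and 54.6, 57.7 and 27.7 CPM in m12_WD+VC. The m12_CD libraries of Cpb2 lay below both single-treatment groups, and m12_WD+VC overlapped them. Its diet difference was 1.93 ± 0.50 (adjusted p = 0.00623), its VC difference 1.70 ± 0.53 (adjusted p = 0.0588) and its interaction -2.62 ± 0.70 (adjusted p = 0.0229).

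**Figure D4:**
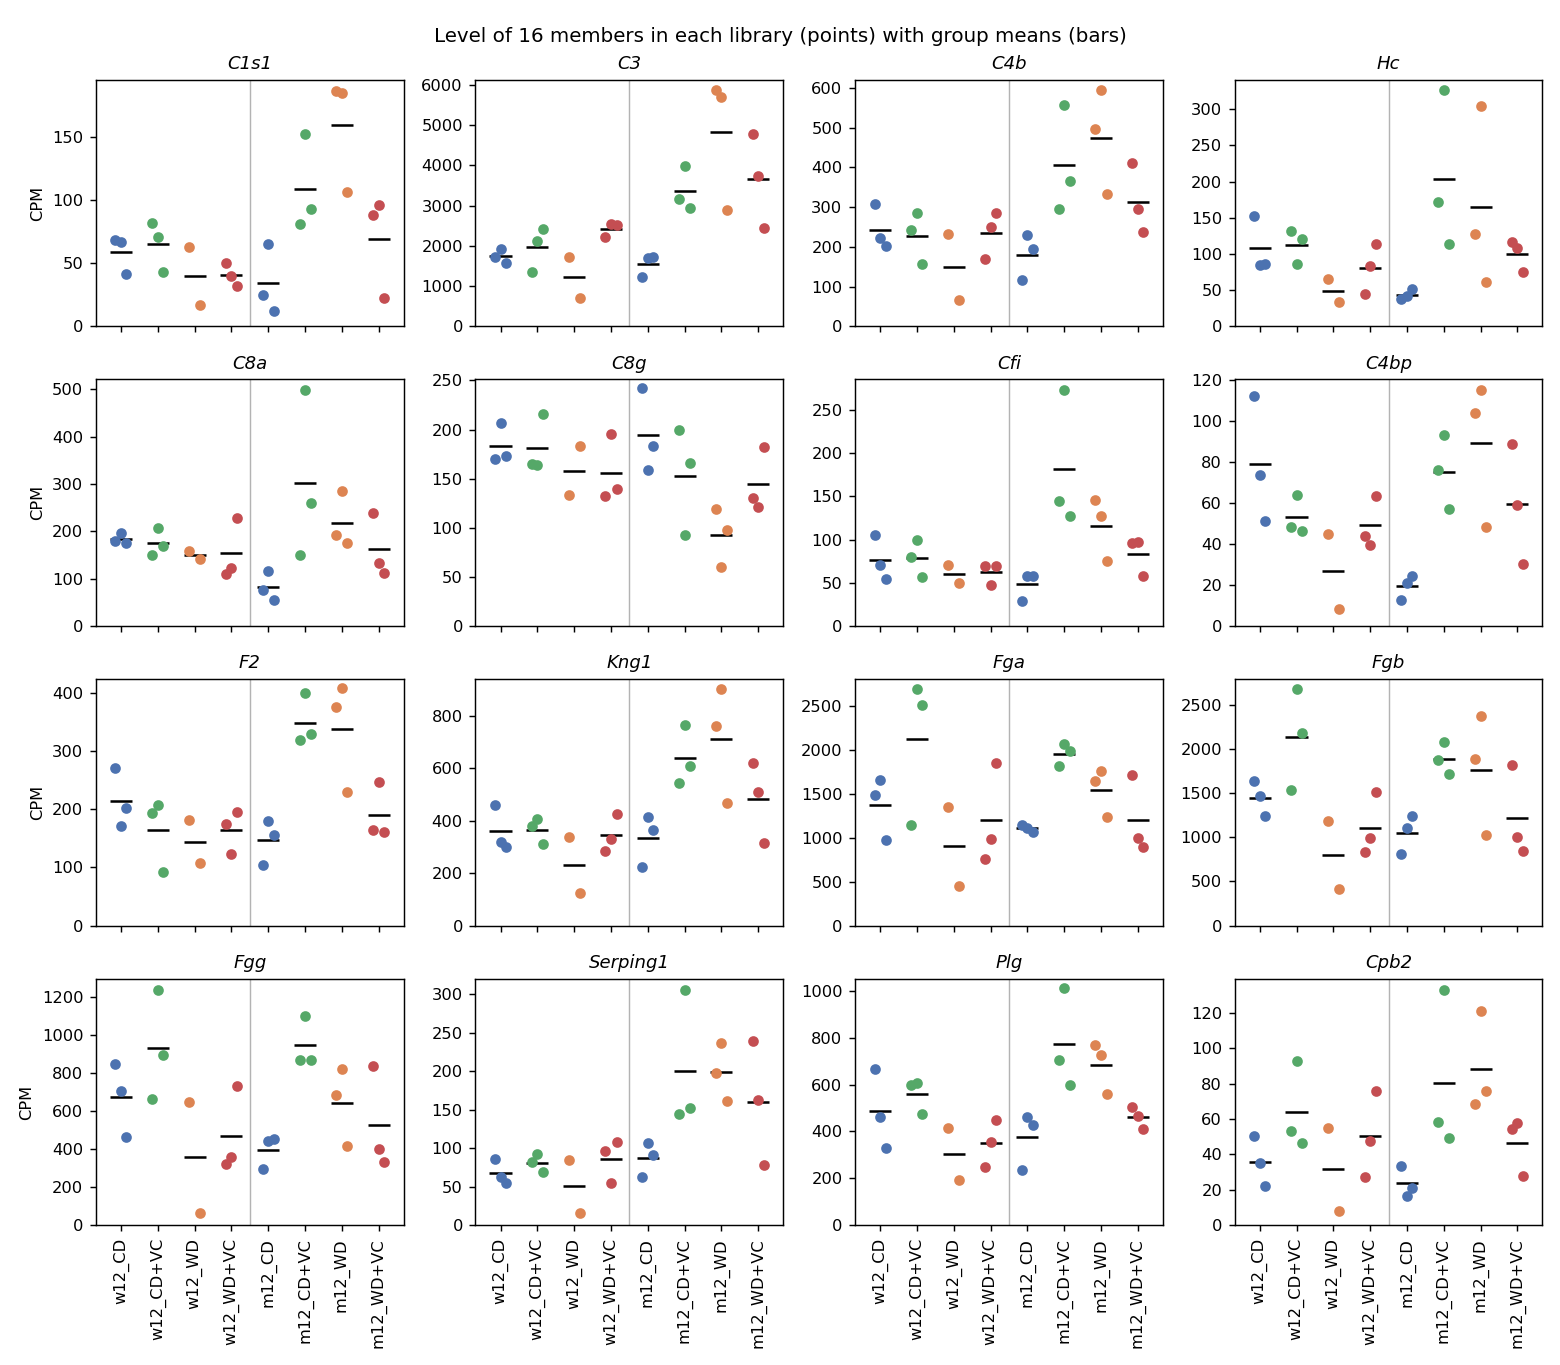
CPM of 16 members in each library (points, one panel per gene, vertical axis from 0), with group means as bars and the 8 sample groups along the horizontal axis. For C3 the m12_CD libraries sit between 1215 and 1723 CPM, below all other m12 libraries, while C8g in m12_WD sits at 60.4 to 119 CPM, below its m12_CD range.

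At the end of the exposure no member was called. edgeR gave 0 calls for diet in air (3 at an unadjusted p under 0.05), for diet with VC (8), for VC on control diet (1) and for VC on Western diet (1), and DESeq2 gave 0 in each of the 4. Over all genes 0.0210%, 0.420%, 0% and 0.0210% were called in these comparisons, respectively. Of the 4764 genes tested, 227, 449, 179 and 215 had an unadjusted p under 0.05. The diet comparison in air rests on 2 w12_WD libraries, of 420735 and 135577 counts. Members' median log2 differences were -0.49, -0.30, 0.10 and 0.12.

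Between the 2 times, 9 members rose in the Western diet groups in air (m12_WD against w12_WD), where 12.3% of all genes were called and 5.21% were called higher (7.14% among entries without an overlap). They were C3, Kng1, C4b, Serping1, F10, C1s1, Plg, F2 and Mbl1. C3 was at 1727 and 714 CPM in the 2 w12_WD libraries used, against 2898 to 5866 CPM in m12_WD (1.96 ± 0.35, adjusted p = 2.77e-04). Kng1 was at 336 and 124 CPM in those libraries and C4b at 233 and 66.4 CPM. Without w12_WD 2, 1 call was left (C3). The count was 5 without m12_WD 1 or without m12_WD 2 and 15 without m12_WD 3. The same contrast after VC (m12_WD+VC against w12_WD+VC) gave 0 calls in edgeR, with 2 at an unadjusted p under 0.05 and 0 in DESeq2, where 0.588% of all genes were called. In the contrast after VC 530 of the 4764 genes tested had an unadjusted p under 0.05. The difference between these 2 time contrasts was not tested.

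Some markers of liver cell types also differed between the groups. All 10 hepatocyte markers were tested. For diet in air 3 were called higher (Hpx, Apob and Trf), or 30.0%, where 21.7% of all genes were called and 10.9% called higher. For VC on control diet 4 were called higher (Apob, Alb, Hpx and Trf), where 2.43% of all genes were. For the interaction 6 of 10 were called negative, where 4.41% of all genes were. For diet after VC Alb and Pck1 were called lower, where 1.26% of all genes were called. The summed level of the 10 was 4037 to 11637 CPM in m12_CD, 16956 to 29995 CPM in m12_CD+VC, 9594 to 20323 CPM in m12_WD and 7269 to 10690 CPM in m12_WD+VC. Of the Kupffer cell and macrophage list 5 of 10 were tested, 2 were higher for diet in air (Lyz2 and Cd5l), and the summed level was 58.4 to 86.3 CPM in m12_CD and 187 to 394 CPM in m12_WD. Of the stellate cell and fibroblast list 5 of 10 were tested and 3 were higher for diet (Col1a1, Dcn and Col3a1), with sums of 25.0 to 65.3 CPM in m12_CD and 202 to 210 CPM in m12_WD. Of the endothelial list 3 of 10 were tested and 1 was higher for diet (Stab2), and Spp1 was the 1 tested cholangiocyte gene and was higher. The lists did not all take the members' direction in the other comparisons. For VC on control diet the median log2 difference was 1.25 for the hepatocyte, 0.80 for the Kupffer cell, 1.88 for the stellate cell and -0.22 for the endothelial list, beside 1.11 for the members. For the interaction these medians were -1.83, -1.01, -2.56 and 0.04, beside -1.50 for the members, and Lyz2 and Spp1 were called negative. For diet after VC they were -1.08, 0.47, 0.10 and 0.97, beside -0.64 for the members. None of the lymphocyte and neutrophil markers passed the filter, and their highest counts over all libraries were 34 (Ptprcap) and 60 (S100a9). The part of cell composition in the members' differences was not tested.

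Other genes of the 2 cascades were read from lists of 29 further complement genes and 36 further coagulation, fibrinolysis and plasma protease inhibitor genes. Of the complement list 15 were tested, and for diet in air 6 were called higher and 1 lower. Over all genes 10.9% were called higher and 10.8% lower in that comparison. C1qa, a chain of the C1q recognition molecule that macrophages make, was higher by 2.28 ± 0.54 (adjusted p = 0.00265), and Clu, the terminal pathway inhibitor clusterin, by 1.75 ± 0.33 (adjusted p = 3.67e-04). C1rl, a C1r-like protease, was lower by a log2 difference of -1.70 ± 0.30 (adjusted p = 1.72e-04). Clu was the single gene of this list called for VC on control diet (1.47 ± 0.34, adjusted p = 0.0216) and for the interaction (-2.00 ± 0.47, adjusted p = 0.0129).

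Of the coagulation list 21 were tested, with 8 higher and 0 lower for diet in air, 4 higher and 0 lower for VC on control diet, and 0 higher and 4 lower for the interaction. Over all genes 10.9% were called higher for diet in air, 2.43% higher for VC on control diet and 4.41% lower for the interaction. Mug1, a murinoglobulin that traps proteases, was higher by 2.05 ± 0.52 with diet (adjusted p = 0.00476) and by 2.23 ± 0.53 with VC (adjusted p = 0.0230), with an interaction of -2.92 ± 0.72 (adjusted p = 0.0157). Itih3, an inter-alpha-trypsin inhibitor heavy chain, was higher with diet (1.49 ± 0.39, adjusted p = 0.00646). Habp2, a plasma protease that activates factor VII, was 8.15-fold higher with VC (3.03 ± 0.61, adjusted p = 0.0116), and it overlaps Nrap on the other strand.

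Of 17 transcriptional regulators and signalling receptors of liver genes 13 were tested, and for diet in air 2 were lower and 1 higher. That is 23.1% of the list, close to the 21.7% called among all genes. Cebpa, a C/EBP factor, fell from a mean of 534 CPM in m12_CD to 222 CPM in m12_WD (-1.27 ± 0.28, adjusted p = 0.00142). Onecut1, a hepatocyte transcription factor, fell from 27.7 to 7.92 CPM (-1.73 ± 0.58, adjusted p = 0.0309). Ppara, the fatty acid-sensing receptor, rose by 3.04 ± 0.74 (adjusted p = 0.00376). Ppara rested on 5 counts over the 3 m12_CD libraries and 78 over those of m12_WD. Cebpa shares exon bases with Gm45091 on the opposite strand, so its value may hold reads of that partner. For the interaction Cebpa was at 1.60 ± 0.40 (adjusted p = 0.0162) and Ppara at -3.46 ± 0.99 (adjusted p = 0.0307). For VC on control diet none of the 13 was called by edgeR, with 5 at an unadjusted p under 0.05. Over all 4764 genes tested, 1253 had such a p.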

How the data were processed

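Liver RNA of 24 libraries, a Trizol preparation with DNase digestion and removal of ribosomal RNA, was read on a HiSeq2500 per the labels' protocols. Reads were processed with Trimmomatic 0.38, HISAT2 2.1.0 and HTSeq 0.11.2 on mm10, per the submitters' processing notes. The deposited table holds whole-number counts per gene symbol. The authors' files per sample hold log2 values of those counts divided by a size factor plus 1, and were used only to check the mapping of columns (24 of 24 matched within a relative tolerance of 1e-06).

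Counts were tested with edgeR 4.0.16 (R 4.3.3): filterByExpr, TMM scaling, and 1 quasi-likelihood fit of 8 groups over 23 libraries, without the library of 607 counts. Benjamini-Hochberg adjustment ran over all 4764 genes tested, in each of 13 comparisons, and the procedure was tested on simulated data. A CPM value is a count per 1000000 of the TMM-scaled size. The common biological coefficient of variation was 0.325. Alternatives were RLE scaling, no filter, DESeq2 1.42.0, scaling from entries without an opposite-strand exon overlap in GENCODE M21, all 24 libraries, a block for the replicate number, and leaving out each library. Values in every library are given for at most 16 members: those called in at least 1 comparison with the smallest adjusted p, plus the fibrinogen chains and C3. Up to 3 called genes per pathway list are named; 1 gene of the list of liver regulators is not reported here. Members and lists were chosen with earlier results of these data known. Replicate libraries differed by 2.41 to 10.59 times the Poisson sampling variance, and none were identical.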

Additional observations from a re-analysis of the deposited data

Results flagged for a closer look

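In 17 members the difference that past VC exposure made at 12 months itself differed between the diets, by the edgeR test of the diet by VC interaction adjusted over all 4764 genes tested. All 17 values were negative, so the log2 difference was lower on Western diet than on control diet. For VC on Western diet 30 of the 37 tested members lay below 0, and 0 were called. On the log2 scale the terminal components gave -3.62 for C6, -2.86 for Hc and -2.29 for C8a. C1s1 was at -2.75, C4b at -1.75 and C3 at -1.51. The inhibitors C4bp and Cfi were at -2.52 and -2.28. Among coagulation factors F2 was at -2.02, Proc at -1.81, Kng1 at -1.48 and F10 at -1.42. The fibrinolysis and serpin genes were at -2.62 for Cpb2, -2.09 for Serpinc1, -1.96 for Serpind1, -1.72 for Serpinf2 and -1.59 for Plg. The comparison rests on 3 libraries in each of 4 groups, and 7.87% of all genes tested were called in it. As negative, 4.41% were called, and 6.72% among entries without an opposite-strand overlap. Of the 17 calls 2 (Hc and F2) were kept under every alternative. Scaling on entries without an overlap kept 8, and 2 members were called without m12_WD+VC 3. C6 rested on 2, 5 and 2 counts in the m12_CD libraries.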

How the results depend on the processing

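Counts of called members moved by more than 1.5 times under these settings. Without an expression filter diet in air gave 9 members (15 as reported) and time on control diet with VC gave 0 (1 as reported). DESeq2 gave 2 for diet after VC (0), 20 for VC on control diet (9), 3 for time on control diet in air (1) and 5 for time on control diet with VC (1). With all 24 libraries VC on control diet gave 14 and time on control diet with VC gave 4. Scaling on entries without an opposite-strand overlap gave 8 for diet in air, 9 for the interaction (17) and 4 for time on Western diet in air (9). Calls over all genes moved as well, given here as higher and lower, against those as reported. VC on control diet gave 231 and 109 in DESeq2 and 172 and 47 with all 24 libraries, against 116 and 68. In DESeq2 diet after VC gave 46 and 53, against 22 and 38. Time on control diet in DESeq2 gave 54 and 66 in air, against 27 and 33. With VC it gave 149 and 208, against 85 and 135. Without a filter diet in air gave 427 and 382, against 519 and 516. The cause was not tested. Leaving out 1 library gave 7 to 20 members for diet in air, 0 to 12 for VC on control diet, 2 to 21 for the interaction, 1 to 15 for time on Western diet in air, 0 to 1 for time on control diet in air, 0 to 0 for time on control diet with VC, and 0 to 0 for each of the others. These ranges cover only the libraries of the groups compared. VC on control diet gave 14 members without m12_WD 3, a library outside that comparison. Where leaving out a library left a group with 1 or 2 libraries, these were assumed to vary like the other groups. Of the values of single called members under all settings, 514 kept their call, 203 lost it and 0 changed sign.

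The replicate numbers do not pair the samples: over 77 pairs of libraries with the same number the correlation of their deviations from the group means ran from -0.278 to 0.202 (median 0.001), and 7 of 23 libraries correlated best with one of their own number. With the replicate number as a block the counts were 15 for diet in air, 10 for VC on control diet, 17 for the interaction, 10 for time on Western diet in air, 1 for time on control diet in air, 1 for time on control diet with VC and 0 for each other comparison. Depth limits the members of low level: a count of 0 allows up to 3 counts, and 1 count was worth up to 8.30 CPM.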
